A study of Mus musculus with 14 samples.

Results

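The genes described here encode splicing factors and spliceosome proteins of the mouse brain. They were chosen by name. The rule holds no measured difference, but the choice was made with earlier results of these data known. It takes protein-coding genes named as SR proteins (*Srsf*), proteins of the small nuclear ribonucleoprotein particles (*Snrp*, *Snrnp*), subunits of splicing factor 3 (*Sf3a*, *Sf3b*), pre-mRNA processing factors (*Prpf*), heterogeneous nuclear ribonucleoproteins (*Hnrnp*), SR-related matrix proteins (*Srrm1* to *Srrm4*) and CDC-like kinases (*Clk1* to *Clk4*), with at least 140 counts over the libraries. This gave 79 genes of the 56748 in the table, or of the 14951 protein-coding genes that reached the same minimum, and all 79 names that matched the rule reached it. All 79 also passed the filter on low counts for the test. In the text they are called the splicing genes.

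Whole brains were taken at postnatal day 14 from 8 Riknull and 6 WT pups, labelled C57BL6/J, and 1 RNA library was sequenced from each pup. Riknull pups are homozygous for a small spontaneous deletion in intron 1 of *2310061I04Rik* (*Rik*), a predicted gene on chromosome 17. The deletion arose in a single embryonic stem cell clone while a floxed *Traf7* line was made, and was bred apart from the floxed allele, so the mutants stem from 1 event and carry an intact *Traf7*. WT pups are littermates without the deletion, per the methods of the study, but the labels do not say which pups shared a litter.

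The 2 genotypes are compared here to ask how these genes differ in brains that lack most *Rik* mRNA. Counts summed to 15183130 to 28012811 per Riknull library and 18102343 to 30993890 per WT library. *Rik* itself was at 68.9 to 79.4 CPM (counts scaled to library size with edgeR's TMM factors) in WT and 7.44 to 10.6 CPM in Riknull libraries, and libraries of the same genotype correlated at 0.983 or above. The labels give 7 male and 1 female Riknull pups and 2 male and 4 female WT pups, so sex is spread unevenly. In WT 1, labelled male, and WT 6, labelled female, the X-inactivation RNA *Xist* and Y-linked genes went against the label. Neuron markers summed to 4600 to 4900 CPM in Riknull and 4600 to 5080 CPM in WT libraries, as the labelled tissue would have, and 0 of 7 passed by edgeR (1 at an unadjusted p under 0.05, 0 by DESeq2).

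Introns are removed from pre-mRNA by the spliceosome, which is built on each intron from the U1 and U2 particles and the U4/U6.U5 tri-snRNP. Their small nuclear RNAs are bound by the ring of Sm proteins, or of LSm proteins in the case of U6, and by proteins particular to each particle. SR proteins and hnRNP proteins bind the pre-mRNA around splice sites and promote or repress their use, and CLK kinases phosphorylate the SR proteins and release them from nuclear speckles. The brain splices many neuronal exons that other tissues skip, under regulators such as *Srrm4* and its relative *Srrm3*. Many genes of the SR and hnRNP families also splice their own transcripts into forms that are degraded, and *Clk1* and *Clk4* transcripts are in part kept in the nucleus with introns. Counts are per gene, so such forms cannot be told apart here.

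Of the 79 splicing genes, 10 were lower and 3 higher in Riknull brains at an adjusted p of at most 0.05 (edgeR's quasi-likelihood test, Benjamini-Hochberg over the 18170 genes tested), which is 16.5% of them, against 3.31% of all genes tested. Of all genes tested, 2.20% were lower and 1.12% higher. Among the 11761 genes within the range of mean CPM of the splicing genes (5.79 to 611 CPM), 4.00% passed, 2.58% lower and 1.41% higher. The genes that fell were the kinase genes *Clk2* and *Clk4*, the SR protein genes *Srsf1*, *Srsf6* and *Srsf7*, the matrix protein gene *Srrm3*, the U1 genes *Snrnp70* and *Prpf40b*, and the hnRNP genes *Hnrnpl* and *Hnrnph3*. Those that rose were *Snrnp200* and *Prpf8*, which encode large subunits of the U5 particle, and *Hnrnpul1*. In bulk tissue, fewer cells of a type and less RNA per cell cannot be told apart.

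All these differences were small. The log2 fold changes of the 79 genes ran from -0.43 to 0.25 with a median of -0.011, against 0.002 over all genes tested, and 47 lay below 0 and 32 above. Of the 66 genes that did not pass, 49 lay within 0.1 of 0. The splicing genes together took 0.887 ± 0.0326% of the counts of a Riknull library (SD, n = 8) and 0.912 ± 0.0206% of a WT library (n = 6), and the ranges overlapped (0.832% to 0.92% and 0.887% to 0.939%). In 8 genes every Riknull library was below every WT library (1.23% of all genes tested), and in 1 every Riknull library was above (0.517%).

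**Figure D1:**
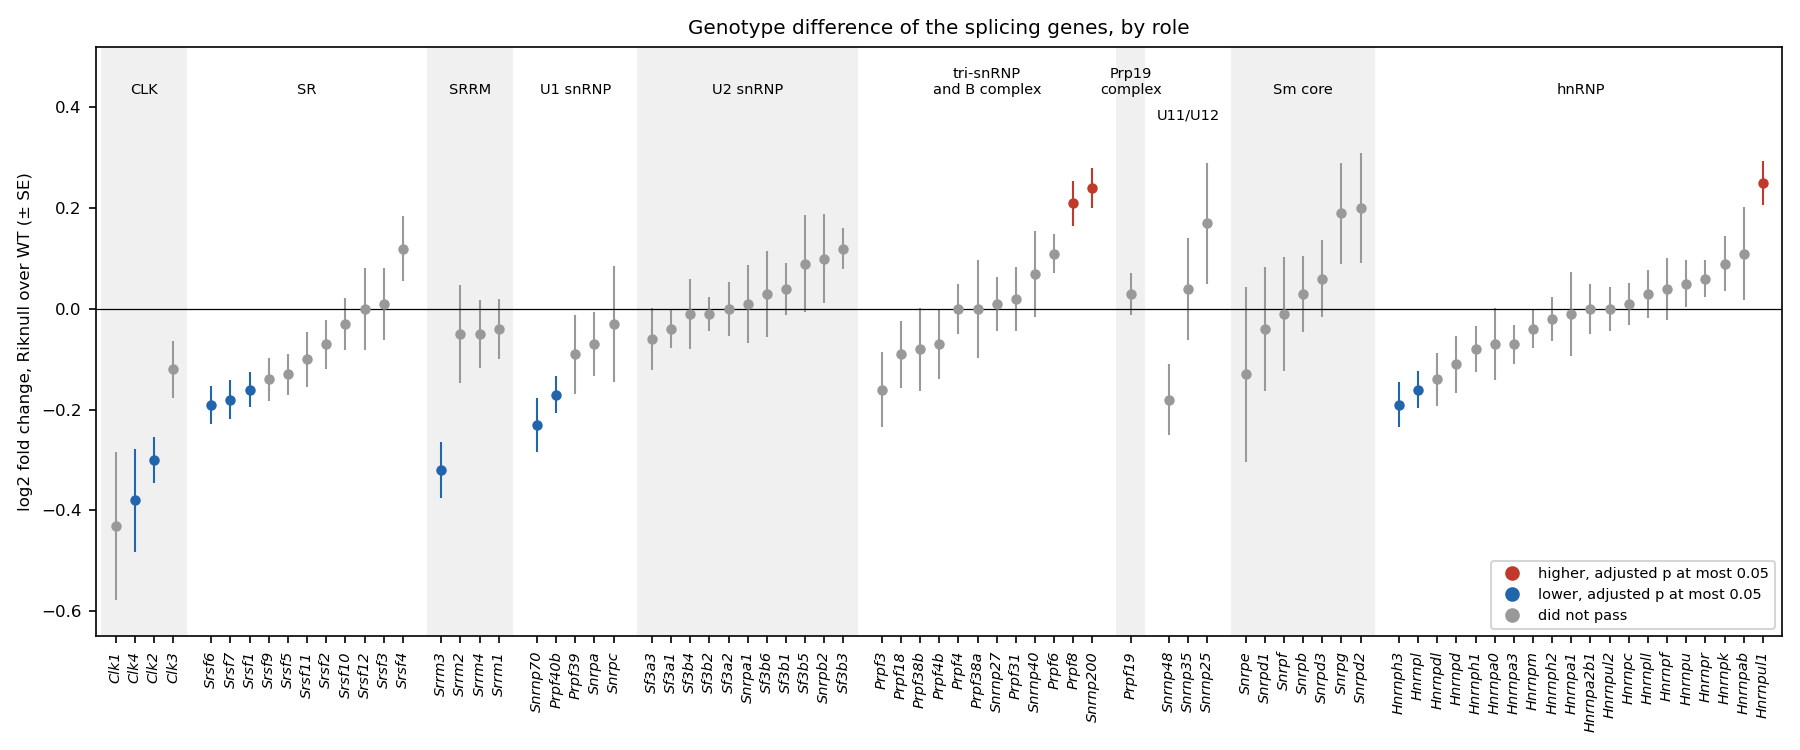
Each point is the log2 fold change of 1 splicing gene (78 of the 79 are drawn), Riknull over WT, with its standard error as a line, grouped by role along the horizontal axis. Genes that passed the test are blue (10 lower) or red (3 higher), and grey points did not pass. All 4 CLK genes lie below 0, and the lower genes that passed stand among the CLK, SR, SRRM, U1 and hnRNP groups.

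These counts depend on how sex and single libraries are handled. When the labelled sex was added to the model, 3 genes were higher and 3 lower (0.842% of all genes tested passed there), and the 7 of the 10 lower genes that no longer passed were *Snrnp70*, *Hnrnpl*, *Srsf6*, *Srrm3*, *Prpf40b*, *Clk4* and *Hnrnph3*. The 10 lower genes became 5 without WT 1 and 6 without Riknull 4, WT 5 or WT 6, and all 13 became 8 without WT 1, where 1.71% of all genes tested passed. Of all genes tested, 1.73% passed without Riknull 4, 1.89% without WT 5 and 1.66% without WT 6. When sex was read from *Xist* and Y-linked genes instead, 6 genes passed (0.798% of all genes tested). By DESeq2 4 were higher and 11 lower (6.50%). In each of the 29 alternatives all 13 genes kept the sign of their fold change. The alternatives reuse the libraries on which the 13 were called, so a kept sign is no separate evidence.

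The promoters of 5 of these genes are shown to set the genes that fell beside those that rose. No set rule picked the 5, and they include both genes that fell with NRF1 letters (*Snrnp70* and *Srsf7*). They thus do not stand for the other genes that passed. For 69 of the 79 genes RefSeq promoters were matched by symbol (GRCm38.p6), and the 250 bases before the start were searched on both strands for short motifs. The lines give those 250 bases, 5′ to 3′ on the strand of the gene, for *Clk2* (chr3:89164545-89164794, plus strand), *Snrnp70* (chr7:45395743-45395992, minus strand), *Srsf7* (chr17:80207306-80207555, minus strand), *Snrnp200* (chr2:127208136-127208385, plus strand) and *Prpf8* (chr11:75486527-75486776, plus strand). Capitals mark a match to the NRF1 motif (GCATGCGC), the ETS motif (CCGGAAG), the CCAAT box or the E-box (CACGTG), in either direction.
Clk2: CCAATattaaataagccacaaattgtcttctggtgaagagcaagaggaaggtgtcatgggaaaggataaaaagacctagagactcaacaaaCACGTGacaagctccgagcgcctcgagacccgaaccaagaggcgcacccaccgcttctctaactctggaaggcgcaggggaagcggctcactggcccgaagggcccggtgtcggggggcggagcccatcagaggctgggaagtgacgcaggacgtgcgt
Snrnp70: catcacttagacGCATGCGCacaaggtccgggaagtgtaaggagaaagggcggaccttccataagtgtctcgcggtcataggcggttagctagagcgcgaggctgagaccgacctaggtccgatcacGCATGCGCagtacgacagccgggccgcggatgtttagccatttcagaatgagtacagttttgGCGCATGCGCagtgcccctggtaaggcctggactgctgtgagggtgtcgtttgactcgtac
Srsf7: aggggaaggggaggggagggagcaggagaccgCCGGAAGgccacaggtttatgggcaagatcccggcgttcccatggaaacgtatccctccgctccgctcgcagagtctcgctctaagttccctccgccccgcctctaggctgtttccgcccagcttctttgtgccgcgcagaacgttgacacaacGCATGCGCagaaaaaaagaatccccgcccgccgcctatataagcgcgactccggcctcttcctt
Snrnp200: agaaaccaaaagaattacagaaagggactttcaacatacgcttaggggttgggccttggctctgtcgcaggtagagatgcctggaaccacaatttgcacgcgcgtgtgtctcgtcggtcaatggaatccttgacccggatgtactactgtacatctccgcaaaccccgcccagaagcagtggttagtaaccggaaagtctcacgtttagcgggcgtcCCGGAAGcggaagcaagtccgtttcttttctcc
Prpf8: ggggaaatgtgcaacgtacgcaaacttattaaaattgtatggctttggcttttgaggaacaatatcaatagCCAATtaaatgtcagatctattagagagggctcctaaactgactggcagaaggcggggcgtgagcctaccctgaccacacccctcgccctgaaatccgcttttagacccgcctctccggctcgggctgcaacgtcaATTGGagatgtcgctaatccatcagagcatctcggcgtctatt
The *Snrnp70* promoter held the NRF1 letters at 3 separate sites, 1 of them readable on both strands. The same letters stood in the *Srsf7* promoter, in at least 1 promoter of 5 of the 69 splicing genes (7.25%), and, counted in the same way, of 2.56% of all 27025 genes with a promoter. The ETS letters stood in 30.4% of the splicing genes and 7.83% of all genes, but in only 1 gene that fell (*Srsf7*) and 1 that rose (*Snrnp200*). The GC box GGGCGG, not in capitals, stood in 9 of the 10 genes that fell, in 2 of the 3 that rose and in 37 of the 56 matched genes that did not pass, against 35.4% of all genes. The CCAAT box stood in 4 of the 10, 2 of the 3 and 25 of the 56 (37.5% of all genes). The E-box stood in *Clk2* and *Prpf40b*, which fell, and in 6 of the 56 that did not pass (6.86% of all genes). The cyclic AMP response element TGACGTCA stood in 3 splicing genes, of which *Clk4* was the only one that passed (1.77% of all genes). The YY1 motif AAGATGGC stood in 1 splicing gene, *Hnrnpul1* (1.83% of all genes). The TATA box TATAAA stood in 6 splicing genes, which did not pass (14.3% of all genes). Each match is a description of letters and not a bound site.

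The 4 CLK kinase genes all lay below 0, and 2 of them passed. *Clk2* was at 44.2, 45.9 and 46.6 CPM (lowest, median and highest) in WT libraries and at 32.7, 36.9 and 40.7 CPM in Riknull libraries. Every Riknull library lay below every WT library, and the means were 45.6 ± 0.919 CPM (SD, n = 6) and 37.0 ± 2.37 CPM (n = 8). The log2 fold change of *Clk2* was -0.30 (SE 0.046, edgeR adjusted p = 0.00229), the smallest adjusted p among the splicing genes. *Clk4* was at 60.4, 70.3 and 76.0 CPM in WT and 39.9, 52.3 and 65.2 CPM in Riknull libraries, which overlap. It fell by 0.38 on the log2 scale (SE 0.103, edgeR adjusted p = 0.0498), close to the threshold, and 9 of the 14 fits that each left out 1 library took it past 0.05.

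*Clk1* had the lowest fold change of the 79 genes and did not pass. Its libraries were at 95.1, 119 and 133 CPM in WT and 54.8, 83.5 and 115 CPM in Riknull, which gave -0.43 on the log2 scale (SE 0.147, edgeR adjusted p = 0.118). The Riknull libraries were widely spread (SD 23.8 CPM, against 13.0 in WT). *Clk3* was at 68.9 ± 6.05 CPM in WT and 63.5 ± 3.81 CPM in Riknull brains and did not pass (-0.12, SE 0.056, adjusted p = 0.261). *Clk1* and *Clk4* are close paralogs, and how reads shared between such copies were counted is not known here, as for the processed copies that many splicing genes have.

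The spread of *Clk1* followed a division of the libraries that crosses the genotypes. Clustered over all genes tested, the 14 libraries part into set A (Riknull 1, 6, 7 and 8 with WT 1, 4, 5 and 6) and set B (Riknull 2 to 5 with WT 2 and 3), and the labels name no batch that matches it. By *Xist* and Y-linked genes, all Riknull libraries of set A were male and WT 1, 4 and 5 female. Genotype and sex are thus nearly confounded within set A. In set A, *Clk1* was at 94.1 to 115 CPM in Riknull and 119 to 133 CPM in WT libraries. In set B it was at 54.8 to 72.9 CPM in Riknull and 95.1 to 113 CPM in WT libraries. The genotypes thus did not overlap within either set, although they did over all 14 libraries. The difference was -0.21 (log2 CPM) in set A and -0.65 in set B for *Clk1*, and -0.22 and -0.51 for *Clk4*, and whether it differs between the sets was not tested.

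**Figure D2:**
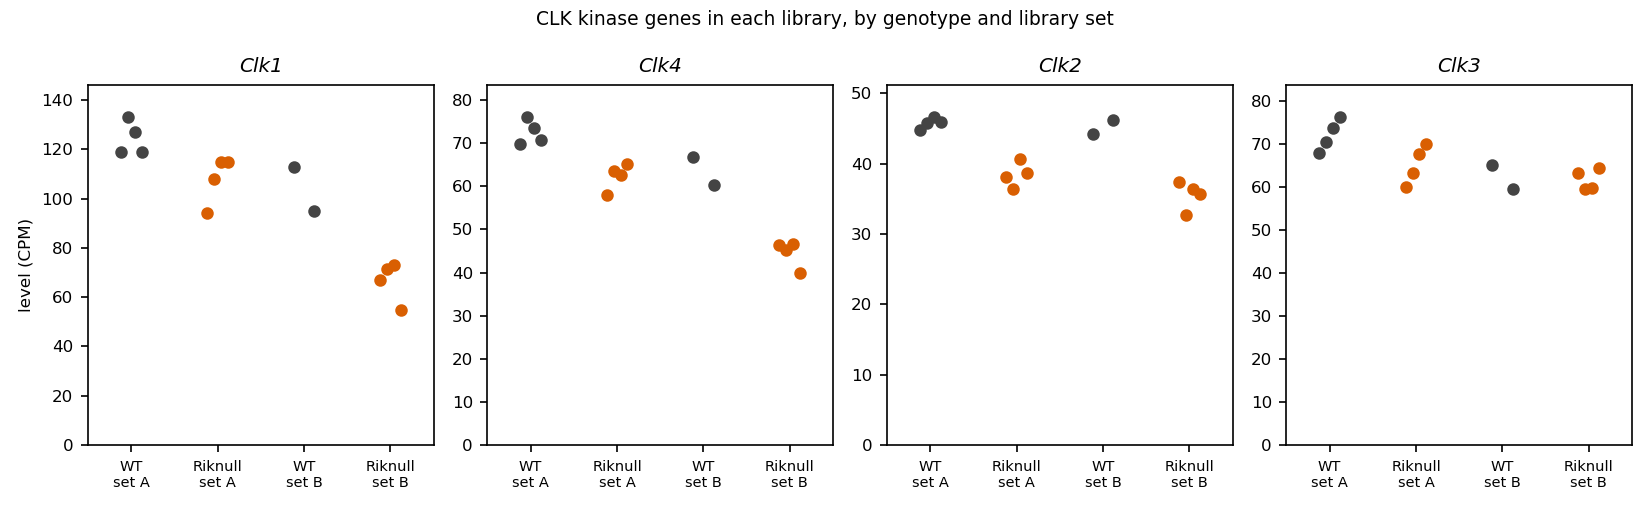
Level of the 4 CLK kinase genes in CPM, 1 point for each library, for WT (grey) and Riknull (orange) libraries of set A (4 and 4) and set B (2 and 4). For *Clk1*, *Clk2* and *Clk4* all Riknull points lie below the WT points of the same set, and the lowest *Clk1* values are the 4 Riknull libraries of set B (54.8 to 72.9 CPM).

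With the set as a block, an alternative chosen after the data were seen, *Clk1* fell by 0.38 on the log2 scale and passed (edgeR adjusted p = 0.00572), and 4 splicing genes were higher and 15 lower (8.38% of all genes tested passed there). The sets differ in other ways that move with these values. Markers of cycling cells summed to 10.9 to 19.7 CPM in set A and 38.4 to 44.7 CPM in set B, and markers of oligodendrocytes to 13600 to 17400 and 9490 to 11100 CPM. Their part in the *Clk1* result was not tested.

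Among the SR protein genes 3 of 11 fell, 8 did not pass and 8 had fold changes below 0. *Srsf1*, whose product promotes exon inclusion and also acts in translation and decay, was at 159, 164 and 176 CPM in WT and 141, 148 and 152 CPM in Riknull libraries, with no overlap. Its log2 fold change was -0.16 (SE 0.035, edgeR adjusted p = 0.0156). *Srsf6* was at 163, 171 and 179 CPM in WT and 138, 150 and 157 CPM in Riknull libraries, again without overlap. Its log2 fold change was -0.19 (SE 0.038, adjusted p = 0.0128 by edgeR).

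*Srsf7*, the SR protein gene with a zinc knuckle in its product, was at 94.9, 100 and 103 CPM in WT and 80.4, 89.1 and 92.3 CPM in Riknull libraries. The groups did not overlap, and the log2 fold change was -0.18 (SE 0.038, edgeR adjusted p = 0.0195). *Srsf7* lies on chromosome 17, 44.3 Mb from *Rik* by the positions of the table, and the 5 other splicing genes of that chromosome (*Hnrnpm*, *Srsf3*, *Snrpc*, *Srrm2* and *Hnrnpll*, 2.34 to 44.1 Mb away) did not pass. Of the SR genes that did not pass, *Srsf5* (-0.13, edgeR adjusted p = 0.0874) was the most abundant per length, and *Srsf4* had the highest fold change (0.12, adjusted p = 0.343). *Srsf5* was at 288 ± 7.87 CPM in WT and 263 ± 14.1 CPM in Riknull brains.

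*Srrm3* and *Srrm4* encode relatives that promote the inclusion of neuronal microexons, while *Srrm1* and *Srrm2* encode scaffolds of splicing complexes and nuclear speckles. *Srrm3* was at 94.3, 101 and 110 CPM in WT and 70.5, 82.7 and 88.1 CPM in Riknull libraries, and the genotypes did not overlap. It fell by 0.32 on the log2 scale (SE 0.055, edgeR adjusted p = 0.0042). The other 3 genes of the group had fold changes from -0.05 to -0.04 and did not pass. *Srrm1*, the highest of them, was at 140 ± 10.2 CPM in WT and 137 ± 11.9 CPM in Riknull brains.

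The U1 particle recognises the start of the intron, and 2 of its 6 genes fell while 4 did not pass. *Snrnp70* encodes the protein that holds its RNA, and *Prpf40b* a relative of yeast Prp40, which bridges U1 to the other end of the intron. *Snrnp70* was at 346, 379 and 401 CPM in WT and 290, 306 and 361 CPM in Riknull libraries. Only Riknull 7 (346 CPM) and Riknull 8 (361 CPM) reached the WT range, and the log2 fold change was -0.23 (SE 0.053, edgeR adjusted p = 0.0255). *Prpf40b* was at 88.1, 90.3 and 93.8 CPM in WT and 75.6, 79.6 and 84.2 CPM in Riknull libraries, without overlap, and fell by 0.17 on the log2 scale (SE 0.037, edgeR adjusted p = 0.0165).

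The 12 genes of the U4/U6.U5 tri-snRNP and the B complex held 2 of the 3 genes that rose. *Snrnp200* encodes the helicase that unwinds U4 from U6, and *Prpf8* the scaffold of the catalytic centre. *Snrnp200* was at 110, 115 and 124 CPM in WT and 123, 138 and 142 CPM in Riknull libraries. *Prpf8* was at 184, 202 and 214 CPM in WT and 207, 235 and 241 CPM in Riknull libraries. In both genes the overlap came from the lowest Riknull library, Riknull 1. The log2 fold change was 0.24 for *Snrnp200* (SE 0.040, edgeR adjusted p = 0.00361) and 0.21 for *Prpf8* (SE 0.045, edgeR adjusted p = 0.0165).

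The other 10 genes of that group did not pass and ran from -0.16 (*Prpf3*, edgeR adjusted p = 0.264) to 0.11 (*Prpf6*, adjusted p = 0.128). The median over all 12 genes of the tri-snRNP and the B complex was 0.00, with 6 above and 6 below 0. This group is wider than the U5 particle. Other U5 genes, *Prpf6* (0.11), *Snrnp40* (0.07), *Eftud2* (0.08) and *Ddx23* (0.05), also lay above 0. None of them passed (edgeR adjusted p = 0.128, 0.686, 0.22 and 0.531), and the U5 genes were not tested as a group.

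By edgeR 0 of the 11 U2 genes and 0 of the 7 Sm core genes passed (1 and 0 at an unadjusted p under 0.05, and 1 and 0 by DESeq2). The U2 particle binds the branch point, and its genes ran from -0.06 (*Sf3a3*) to 0.12 (*Sf3b3*, adjusted p = 0.122). *Sf3b3* was at 90.4 ± 3.13 CPM in WT and 97.9 ± 4.84 CPM in Riknull brains. The Sm ring genes ran from -0.13 (*Snrpe*, adjusted p = 0.727) to 0.20 (*Snrpd2*, adjusted p = 0.337), with wide errors. Between the library sets, 6 of the 7 Sm genes were lower in set A than in set B in both genotypes. Their differences were -0.32 to -0.18 (log2 CPM) in Riknull and -0.30 to -0.07 in WT libraries. The exception was *Snrpe* (-0.41 in Riknull and 0.06 in WT libraries). The 4 CLK genes were higher in set A in both genotypes. Over all 79 genes, 44 were lower in set A in both genotypes and 24 higher, with no test since the sets were formed from the same counts. The median absolute difference between the sets was 0.14 for the splicing genes and 0.15 for all genes tested.

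*Prpf19*, the ubiquitin ligase at the core of the complex that activates the spliceosome, did not pass (0.03, edgeR adjusted p = 0.697), nor did the 3 genes of the U11/U12 spliceosome, which removes a rare class of introns. These ran from -0.18 (*Snrnp48*, adjusted p = 0.174) to 0.17 (*Snrnp25*, adjusted p = 0.475), with 1 of the 3 at an unadjusted p under 0.05 and 0 that passed by DESeq2.

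The 20 hnRNP genes split, with 2 lower, 1 higher and 17 that did not pass. *Hnrnpl*, which encodes a repressor and activator of exons that binds CA repeats, was at 234, 246 and 254 CPM in WT and 202, 221 and 228 CPM in Riknull libraries. The genotypes did not overlap, and the log2 fold change was -0.16 (SE 0.037, edgeR adjusted p = 0.0304). *Hnrnph3* was at 32.9, 34.0 and 35.3 CPM in WT and 27.2, 29.8 and 32.2 CPM in Riknull libraries, also without overlap. It fell by 0.19 on the log2 scale (SE 0.045, edgeR adjusted p = 0.0310). *Hnrnph3* overlaps *Rufy2* on the opposite strand over 2547 bases, and since it is not known whether the counts used strand, its value is uncertain. Also uncertain are the values of 13 other splicing genes that overlap a gene with at least 5% of their counts, none of which passed, among them *Prpf6* (*Zfp512b*), *Sf3b3* (*Cog4*), *Clk3* (*Edc3*) and *Srsf4*.

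*Hnrnpul1*, a relative of *Hnrnpu* linked to RNA export and DNA repair, was at 107, 119 and 126 CPM in WT and 135, 141 and 149 CPM in Riknull libraries. Every Riknull library was above every WT library, and the log2 fold change was 0.25 (SE 0.043, edgeR adjusted p = 0.0042). The most abundant splicing genes per length did not pass. *Hnrnpa0* had a mean of 104 FPKM over the libraries and *Hnrnpa2b1* 72.5 FPKM, with fold changes of -0.07 and 0.00. *Hnrnpa2b1* was at 481 ± 25.3 CPM in WT and 482 ± 30.2 CPM in Riknull brains.

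**Figure D3:**
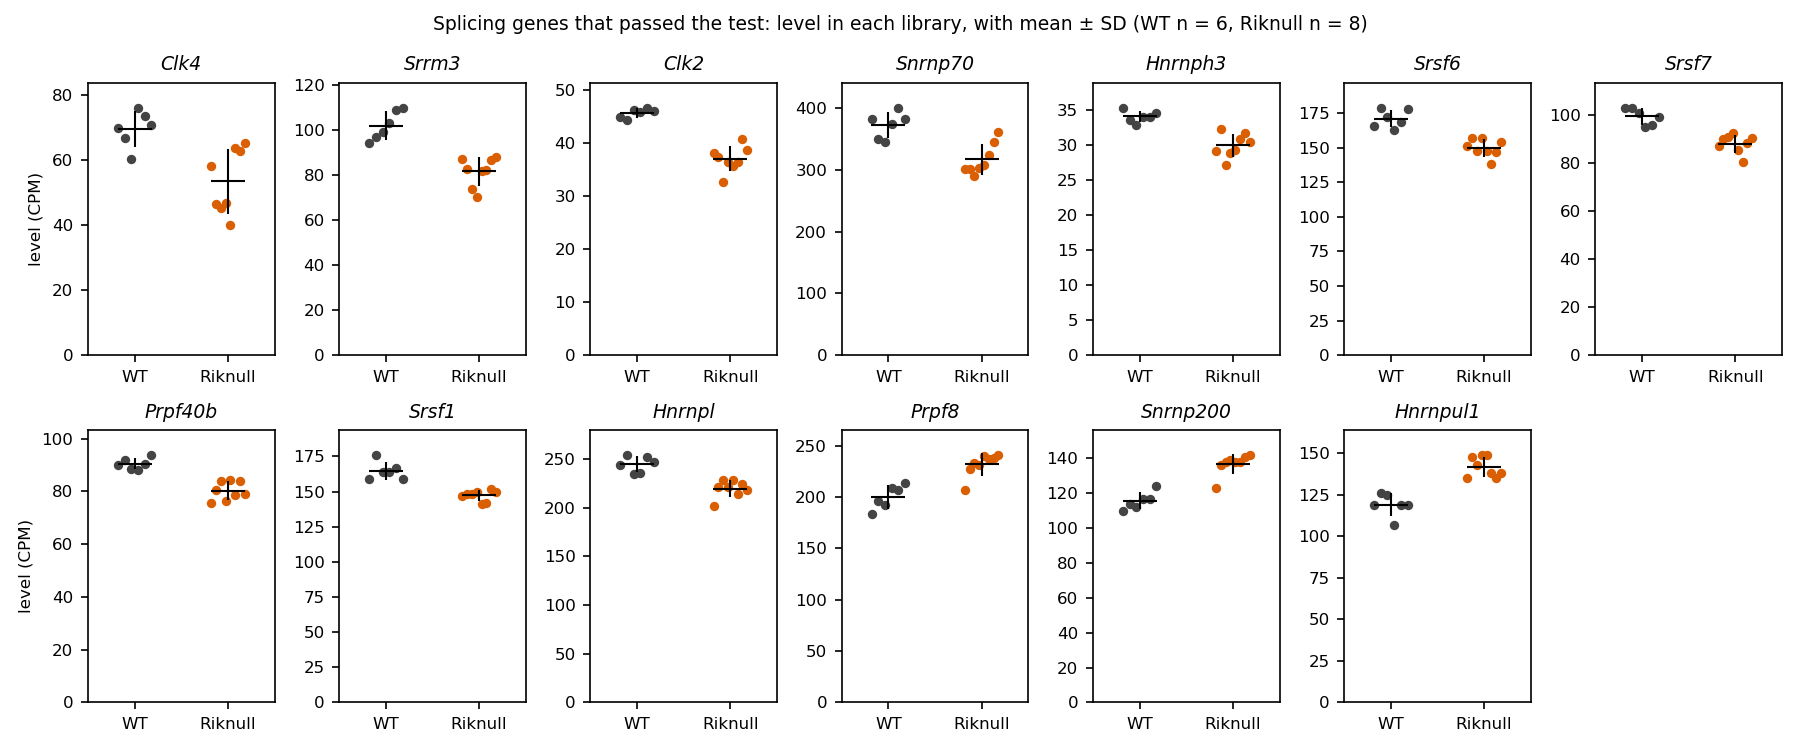
Level in CPM of the 13 splicing genes that passed the test, 1 point for each library, with WT in grey (n = 6) and Riknull in orange (n = 8) and the mean ± SD in black, on axes that start at 0. The first 10 panels are the genes that fell and the last 3 those that rose. *Clk4*, *Snrnp70*, *Prpf8* and *Snrnp200* are the panels where the genotypes overlap.

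Within the library sets all 13 genes kept their direction in both sets, which together are the libraries on which they were called. In 12 genes every Riknull library was below every WT library of its own set (2.44% of all genes tested), including *Clk1* and *Hnrnpdl*, which did not pass over all libraries. In 2 genes, *Hnrnpul1* and *Prpf6*, every Riknull library was above (1.43%). As given above, genotype and sex were nearly confounded within set A. Tested in set B alone (4 Riknull, 2 WT), 3 genes were higher and 8 lower (3.10% of all genes tested passed), while in set A alone (4 and 4) 0 passed by edgeR (0.253%), with 20 at an unadjusted p under 0.05.

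**Figure D4:**
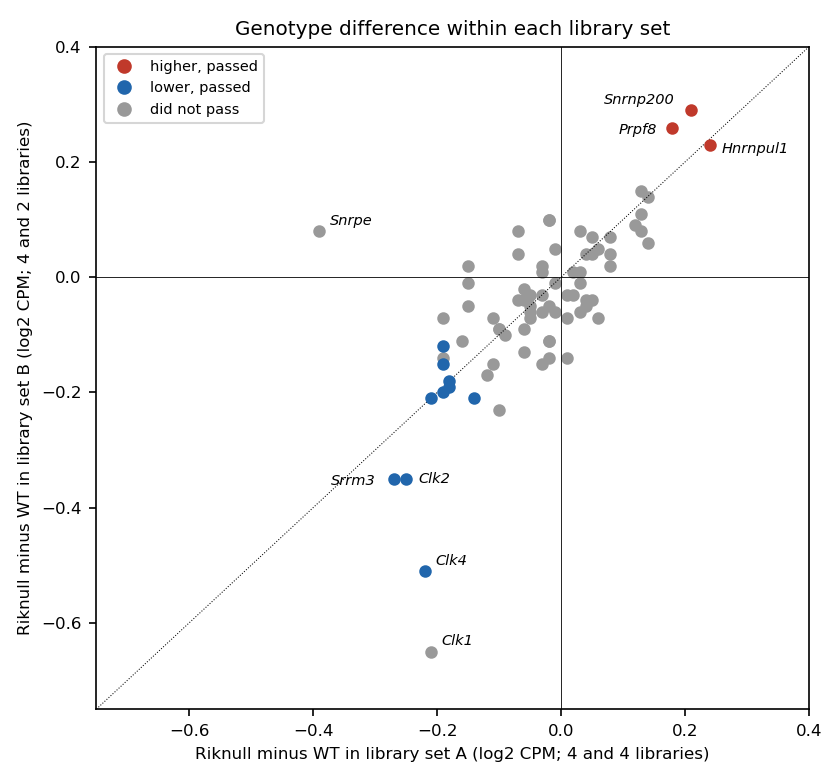
Difference between the mean log2 CPM of Riknull and WT libraries in set A (horizontal axis) and set B (vertical axis), 1 point for each of the 79 splicing genes, with the dotted line where both are equal. The 10 genes that fell lie at lower left and the 3 that rose at upper right. *Clk1* and *Clk4* lie far below the line, and *Snrpe* differs in sign (-0.39 and 0.08).

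Markers of other cell types moved with the genotype beside these genes. Endothelial markers summed to 122 to 145 CPM in Riknull and 154 to 174 CPM in WT libraries (0 of 5 passed by edgeR and DESeq2, 3 at an unadjusted p under 0.05), and choroid plexus markers to 485 to 621 and 337 to 510 CPM (4 of 6 higher). Markers of meningeal fibroblasts and pericytes summed to 147 to 208 and 124 to 172 CPM (2 of 6 higher), and 1 of 6 astrocyte markers was higher. Pituitary markers reached 281 CPM in a Riknull library and at most 9.46 CPM in WT. Their part in the differences of the splicing genes was not tested. Without Riknull 5 and 8, the libraries with pituitary transcripts, 2 splicing genes were higher and 7 lower (1.75% of all genes tested passed).

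Other genes of the splicing machinery were read from 6 lists, chosen with earlier results of these data known, with 175 genes tested. Of these 0 were higher and 7 lower, with a median log2 fold change of -0.011. The 7 are 4.00% of the genes of the lists, near the 3.31% of all genes tested, so the count is no result about the lists. By edgeR 0 of 44 helicases and catalytic-step proteins passed (7 at an unadjusted p under 0.05, 2 by DESeq2), as did 0 of 24 LSm and minor spliceosome proteins (2 and 0). By DESeq2, 2 genes of the 6 lists were higher and 12 lower, or 8.0% of them against 6.50% of all genes tested. Of 41 accessory proteins at the splice sites 3 were lower: *Rsrp1*, which encodes an arginine- and serine-rich protein, *Acin1* and *Arglu1*.

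*Rsrp1* was at 352, 403 and 441 CPM in WT and 279, 308 and 360 CPM in Riknull libraries, with a small overlap. Its log2 fold change was -0.35 (SE 0.069, edgeR adjusted p = 0.0104). *Acin1* and *Arglu1* fell by 0.19 and 0.16 on the log2 scale (edgeR adjusted p = 0.0421 and 0.048), but passed in only 3 and 1 of the 14 fits that each left out 1 library. *Upf1*, the central helicase of nonsense-mediated decay, the pathway that degrades many of the unproductive SR transcripts, was the 1 of 15 genes of its list that passed. It was at 94.1, 110 and 116 CPM in WT and 80.8, 85.8 and 96.2 CPM in Riknull libraries, which gave -0.31 on the log2 scale (SE 0.054, edgeR adjusted p = 0.00454).

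Of 7 other kinases of SR proteins *Srpk3*, best known from muscle, fell from 13.6 ± 2.28 to 10.3 ± 1.39 CPM (-0.40, edgeR adjusted p = 0.0473), and passed in 4 of the 14 fits with 1 library left out. Of 44 neuronal and tissue-selective regulators 2 were lower. *Nova2*, a neuronal regulator that binds YCAY clusters, was at 187, 197 and 210 CPM in WT and 153, 166 and 188 CPM in Riknull libraries. Its log2 fold change was -0.25 (SE 0.052, edgeR adjusted p = 0.0153). *Pcbp2*, which encodes a poly(C)-binding protein, fell by 0.15 (log2 scale, edgeR adjusted p = 0.0398) without overlap, and passed in 2 of those 14 fits. When the labelled sex was added to the model, 0 of these 7 passed.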

How the data were processed

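RNA of 14 whole brains was sequenced by a service laboratory, with 1 library per pup. The authors deposited whole-number counts per gene, not normalized, for each library. The deposited FPKM values are those counts divided by a library size factor and the gene length. The results of the authors' own comparison in the table (group means, fold changes and p-values) were not used. Which aligner and counter were run, and whether strand was used, is not given in the sources used here. Per the labels the build is mm10, but gene positions in the table differ from GRCm38 and are given as in the table, while promoters are RefSeq's on GRCm38.p6. Columns of other samples numbered 0. Where a name had several identifiers (77 names), the one with the most counts stood for it.

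The splicing genes and the lists beside them were chosen with earlier results of these data known. The quasi-likelihood test of edgeR 4.0.16 (R 4.3.3) was run on the counts with genotype as its single term, after TMM scaling and edgeR's default removal of weakly counted genes. The standard error is the absolute log2 fold change divided by the square root of F. For log2 CPM a prior count of 2 was used. The threshold was an adjusted p (Benjamini-Hochberg, 18170 genes) of at most 0.05. The depth ranged from 15183130 to 30993890 counts. Named were all splicing genes that passed, the highest and lowest of each role, and the 3 with the most counts per length. Up to 3 that passed from each other list, and *Rik*, were also named. Other genes named without this rule are those of the counts of genes without overlap, on chromosome 17, *Prpf6* and *Hnrnpdl*. These, and the U5 genes *Snrnp40*, *Eftud2* and *Ddx23*, were chosen after their values were seen. The values of 1 gene that the rule names are not reported here. Alternatives were DESeq2 1.42.0, its size factors, other filters, terms for sex and replicate number, and left-out libraries.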

Additional observations from a re-analysis of the deposited data

Results flagged for a closer look

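In 3 of 74 groups of values tested, 1 library stood apart from the rest of its genotype, where chance gives about 1 in 20. *Prpf8* was at 207 CPM in Riknull 1, the lowest of the 8 Riknull libraries, with the next at 227 CPM, and the gap was 0.593 of the range of the group. *Snrnp200* was at 123 CPM in the same library, with the next at 136 CPM (0.673 of the range). *Hnrnpul1* was at 107 CPM in WT 4, the lowest of the 6 WT libraries, with the next at 119 CPM (0.631 of the range). Without Riknull 1, and without WT 4, each of the 3 genes still passed.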

How the results depend on the processing

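The 3 higher and 10 lower splicing genes became 0 and 0 among libraries labelled male alone (7 Riknull, 2 WT) and in library set A alone. The 10 lower genes became 5 with all genes kept, 3 with labelled sex in the model, 4 with sex read from *Xist* and Y-linked genes and 3 without WT 1 and WT 6, and all 13 became 8, 6, 6 and 5. Of all genes tested, 0.0377% passed among libraries labelled male, 0.253% in set A, 0.941% with all genes kept and 0.908% without WT 1 and WT 6. The libraries labelled male include WT 1, whose *Xist* and Y-linked values went against its label. The fits by library set, with sex read from *Xist*, without WT 1 and WT 6 and without Riknull 5 and Riknull 8 were chosen after the data were seen. Leaving out 1 library at a time gave 3 to 3 higher, 5 to 10 lower and 8 to 13 in all, and 8 genes passed in each of these 14 fits: *Prpf8*, *Srsf6*, *Srsf1*, *Hnrnpul1*, *Snrnp200*, *Srrm3*, *Prpf40b* and *Clk2*. *Snrnp70*, *Hnrnpl*, *Srsf7*, *Clk4* and *Hnrnph3* did not. The 0 higher genes of the other splicing lists became 2 with DESeq2 and 3 with the library set as a block. The 7 lower became 12 with DESeq2, 4 with its size factors, 4 without the filter, 0 with the labelled sex, 14 with the replicate block, 0 among libraries labelled male, 14 with the library set as a block, 0 in set A, 1 with sex read from *Xist*, 1 without WT 1 and WT 6, 4 without Riknull 5 and Riknull 8, and 3 to 8 leaving out 1 library. The causes were not tested. Same-numbered libraries did not pair (6 pairs, r from -0.34 to 0.32, 1 of 6 closest to its own number), and with the replicate block 4 splicing genes were higher and 12 lower (4.23% of all genes tested passed). For single genes 189 alternatives lost a call, 9 gained one and 0 reversed.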
